A study of Mus musculus with 4 samples.

Results

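The genes that untreated RAW 264.7 cells express at rest were ranked by their brightness on a single two-colour Agilent array. This array is 1 of 4 in the series and is the only one of cells that met no bacteria. The other 3 arrays carried the same cells after 1, 4 and 6 h with Lactobacillus bulgaricus, a lactic acid bacterium of fermented milk, at a multiplicity of infection of 10 bacteria per cell. RNA from 3 cultures was pooled in equal amounts for each array, so the spread between cultures was not measured and no test between groups could be made. RNA of the cells carried Cy5 in every case, and Cy3 carried a reference that the labels describe as a pool of RNA from the untreated and all treated groups, with no dye swap. All 4 arrays lay on 1 slide in an order that followed the time of treatment, so slide position and time cannot be told apart.

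RAW 264.7 is a macrophage-like line that arose in a BALB/c mouse carrying Abelson leukaemia virus, and it serves as a model of macrophage responses to microbes and of osteoclast formation. As a dividing and transformed line it is a limited model of resident macrophages. Macrophages are phagocytes: they recognise microbes and debris through surface and endosomal receptors, digest them in acid lysosomes, secrete cytokines, proteases and carrier proteins, and draw heavily on glycolysis. The line was grown in medium with heat-inactivated serum and no antibiotic.

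Genes were chosen by a rule on the Cy5 channel alone. A spot counted when it was no control, was well above its background by the scanner software's own flag and carried no flag as a non-uniform or population outlier. Brightness means the median Cy5 signal of a spot minus the median of its local background, in scanner units, averaged on the log2 scale over the spots and passing probes of a gene. Of 20876 genes with a scored probe, 11993 (57.4%) were detected and ranked, and 8883 were not well above background. The ranked genes were split into a bright class (the top 25%, 2998 genes, 14.4% of genes scored), a dim class (the bottom 25%) and a middle class between them. The counts of each list below are to be set beside these shares of all genes, 57.4% detected and 14.4% bright. The bright class began at 1825 units and the dim class ended at 115 units, with the nearest genes outside at 1824 and 115 units, so class edges are arbitrary. The median ranked gene had 505 units and the extremes were 15 and 220256 units, a 14684-fold range. The 153 negative control spots lay between -1 and 16 units with a median of 6, and 0 of them were well above background, while genes not well above background had a median of 10 units.

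**Figure D1:**
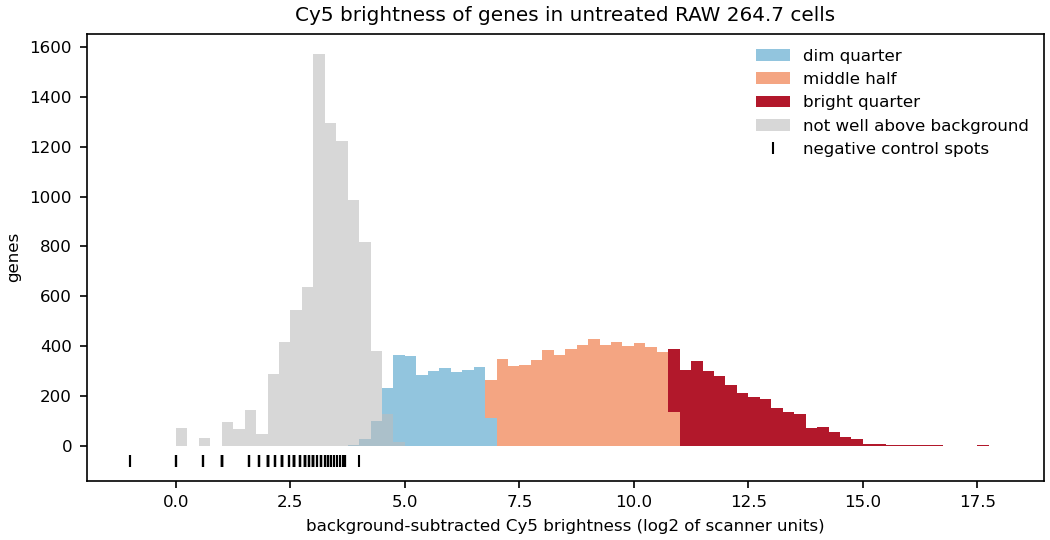
Number of genes (vertical axis) by background-subtracted Cy5 brightness in log2 scanner units (horizontal axis) on the untreated array, coloured by class, with undetected genes at their brightest probe and negative control spots above 0 as ticks. The ranked genes spread from 15 to 220256 units, while the negative controls end at 16.

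Brightness depends on the probe as well as on the transcript, so a probe's level is not an abundance and 2 genes close in rank have no order. Among 250 probes printed as 10 spots, the spots of one probe had a median coefficient of variation of 16.1% (range 3.76% to 31.0%). Probes of the same gene differed far more. For the 3015 genes ranked on more than 1 passing probe, the median gap between the brightest and the dimmest was 3.73-fold, and in 70.4% of them it was at least 2-fold. Rps27a, which encodes a ubiquitin and ribosomal fusion protein, had passing probes at 55.5 and 40152 units. Gaps nearly as wide were found for H13 (34 and 22919 units), a signal peptide peptidase, for Mtch2 (26.5 and 17266 units), a mitochondrial outer membrane protein, for Uba1 (37.5 and 23464 units), the ubiquitin-activating enzyme, and for Hspa4 (25.5 and 15498 units), a heat shock protein. The other 8978 ranked genes rested on 1 passing probe, for which no such gap could be seen.

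The outlier flags removed mainly the brightest spots. Of the 425 spots above 30000 units, 302 (71.1%) were flagged, against 0.462% of spots at or below that level. All 302 had been scaled up from a second scan at lower gain. Of the 729 spots taken from that scan 45.4% were flagged, against 0.397% of the other spots. As a result 91 genes had flagged spots only and could not be ranked, and 84 of them read above 20000 units at a flagged spot. Among them were Aldoa (127974 units) and Pkm (102928 units) of glycolysis, Rps9 (112895 units) of the ribosome, and the cytokine Mif (78519 units). The same fate met Fth1 (68789 units), the ferritin heavy chain, Cd14 (64681 units), the co-receptor for bacterial lipopolysaccharide, Ctsz (62477 units), a lysosomal protease, and Spp1 (55786 units), the secreted matrix protein osteopontin. Such genes are given below at the reading of their flagged spots and are in no count. When flagged spots were kept, 5 of the 20 genes that lead the ranking stayed among the top 20.

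**Figure D2:**
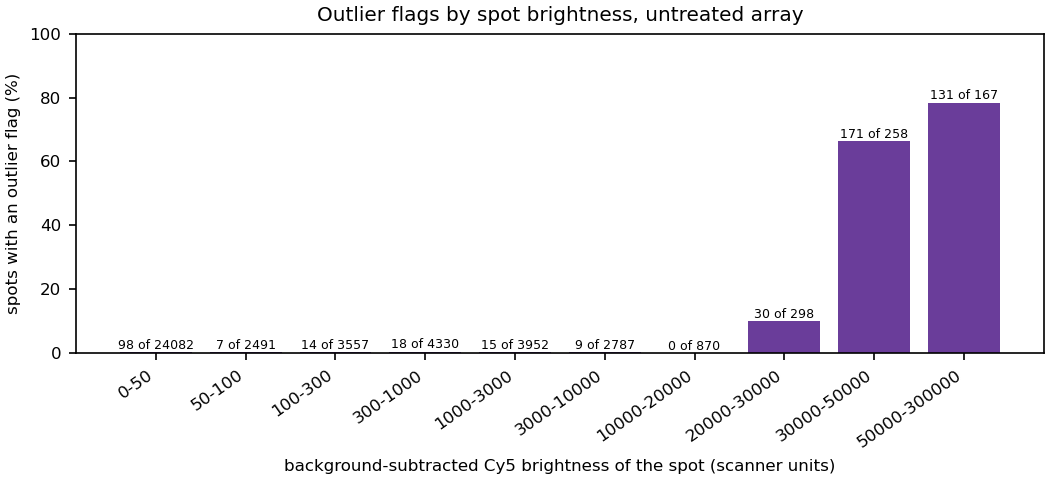
Share of spots with an outlier flag (vertical axis, percent) in bins of background-subtracted Cy5 brightness (horizontal axis, scanner units) on the untreated array, with flagged and total spots printed above each bar. Below 10000 units under 0.5% of spots were flagged, between 30000 and 50000 units 66.3% and above 50000 units 78.4%.

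The top of the ranking held genes of the cytoskeleton, glycolysis, the ribosome and the Fc receptor complex. Eif5a, a translation factor, came first at 220256 units, but its local background carried an outlier flag and its reference channel stood 1.43 log2 units above its median on the other 3 arrays. Actb, the cytoplasmic actin, followed at 102155 units, and Pgk1, a glycolytic kinase, at 81292 units. Fcer1g, the shared signalling chain of Fc receptors, had 71759 units, and Capg, a macrophage actin-capping protein, had 68786 units. Ifitm3, an interferon-induced membrane protein that restricts virus entry, had 60399 units against 46035, 36311 and 34856 units on the 1, 4 and 6 h arrays after scaling to the same median. Its untreated value was therefore the highest of the 4. Next to them stood Rplp1 (54853), Rps16 (43582) and Rps26 (38471) of the ribosome, the chaperone cofactor Cdc37 (48491) and the growth-related protein Tpt1 (44294). Mitochondrial genes among the leading 20 were Atpif1 (41565), the inhibitor of the ATP synthase, and Cox4i1 (36234), a subunit of cytochrome c oxidase. Fxyd2 (42215), Gapdh (40240), Cap1 (36899), Gpi1 (36624), the proton pump subunit Atp6v0c (36280) and the ferritin light chain Ftl1 (34721) were the others named. The reference of Atp6v0c on the untreated array differed by -1.16 log2 units from its median on the other arrays. The 120 brightest genes, 1% of those ranked, held 15.8% of the summed brightness, and the bright class held 83.0%.

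Promoters of the classes differed in base composition. RefSeq's table for GRCm38.p6 gave windows from 250 bases before to 50 bases after the start for 16537 of the genes scored. The median ratio of observed to expected CpG dinucleotides fell from 0.79 in bright and 0.76 in middle genes to 0.56 in dim and 0.30 in undetected genes, beside 0.60 over all genes scored. The letters GGGCGG, the core of the GC box, were counted on either strand. They were found in 65.2% of windows of bright genes and 30.0% of those of undetected genes. The share was 48.3% in windows of all genes scored and 35.7% in all windows of this length. CCGGAAG, an ETS-type motif, occurred in 22.2% of bright and 3.89% of undetected windows (genes scored 11.9%, all windows 8.86%). For TATAAA, the core promoter box, these shares were 7.09% and 18.5% (genes scored 11.97%, all windows 13.6%). Among detected genes of the lists, the 15 macrophage lineage genes with an entry had a median CpG ratio of 0.32 and TATAAA in 31.6% of windows, while 40 ribosomal and 23 respiratory chain genes had medians of 0.89 and 0.89. The lists are of unequal size and some are small, and matches of each motif were counted without regard to overlap with another. As examples, picked after their values were seen, the 150 bases before the start are printed for Fcer1g of the lineage list, Cfp and Cst3 of the secretory lists and 2 housekeeping genes, in transcript direction, with matches to GGGCGG or CCGGAAG on either strand in capitals. Fcer1g lies at chr1:171234350-171234499 (minus strand), Cfp at chrX:20931556-20931705 (minus), Cst3 at chr2:148875513-148875662 (minus), Rps16 at chr7:28350539-28350688 (plus) and Cox5a at chr9:57521082-57521231 (plus).
Fcer1g: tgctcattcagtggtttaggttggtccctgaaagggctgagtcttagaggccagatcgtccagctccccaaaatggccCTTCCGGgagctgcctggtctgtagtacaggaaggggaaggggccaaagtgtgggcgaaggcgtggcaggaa
Cfp: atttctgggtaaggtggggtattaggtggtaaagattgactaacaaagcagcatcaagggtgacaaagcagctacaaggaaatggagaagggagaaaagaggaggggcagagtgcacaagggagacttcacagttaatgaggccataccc
Cst3: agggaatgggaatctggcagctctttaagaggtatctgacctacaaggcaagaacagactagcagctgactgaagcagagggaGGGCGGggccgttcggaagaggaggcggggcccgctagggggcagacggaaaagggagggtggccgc
Rps16: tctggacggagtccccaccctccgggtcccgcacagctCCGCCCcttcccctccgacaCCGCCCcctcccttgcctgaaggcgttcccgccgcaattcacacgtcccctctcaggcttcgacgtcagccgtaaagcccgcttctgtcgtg
Cox5a: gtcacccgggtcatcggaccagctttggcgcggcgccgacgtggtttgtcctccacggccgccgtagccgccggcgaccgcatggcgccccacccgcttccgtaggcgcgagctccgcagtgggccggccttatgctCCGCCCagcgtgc
The printed bases of Cfp hold no match to either motif, and its CpG ratio over the whole window of 300 bases is 0.11. The ratio is 0.32 for Fcer1g, 0.58 for Cst3, 0.86 for Rps16 and 1.14 for Cox5a, so Cst3 lies near the 0.60 of all genes scored.

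Macrophage identity genes were bright as a group. Of the 27 scored lineage factors and surface markers, 23 were detected (85.2%, beside 57.4% of all genes). Of these 14 were bright (51.9% of those scored, beside 14.4%) and 0 dim. The median of 3009 units lay at the percentile 83.0 of all ranked genes. Behind Fcer1g came Tyrobp (22641 units), the adaptor DAP12 that pairs with myeloid receptors, Hcls1 (14856 units), a substrate of leukocyte kinases, Lst1 (12121 units) and the integrin chain Itgb2 (10490 units). Csf1r, the receptor that keeps macrophages alive, had 4326 units untreated and 4349, 4120 and 4878 units on the 1, 4 and 6 h arrays, so it stayed within a narrow band. Its level is uncertain, since its 3 passing probes differed by 4.70 log2 units, with the brightest at 24521 units. Cx3cr1, the fractalkine receptor, had 3921 units untreated, 3507 at 1 h, 1490 at 4 h and 1320 at 6 h. The untreated level of Cx3cr1 was thus the highest of the 4. The F4/80 gene Adgre1 (1294 units) and Spi1 (1276 units), the myeloid master factor PU.1, were in the middle class, as was Itgam (504 units), the CD11b chain, whose 3 passing probes disagreed. Runx1 (316 units), Aif1 (255 units) and Siglec1 (221 units) were the dimmest detected members. Maf, Mertk and Ms4a7, which mark mature resident macrophages, were among the members not well above background. Cd14, Trem2 (31401 units) and Lgals3 (31057 units) could be read only from flagged spots, and Cd68 and Clec7a had no named probe. Members named here beyond the brightest 4, the dimmest detected 2 and the undetected of a list were picked after their values were seen.

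Markers of tissue-resident and alternatively activated macrophages were mostly not detected. Only 5 of 18 (27.8%, beside 57.4% of all genes) were well above background and 13 were not. Among the latter were Mrc1 (the mannose receptor), Cd163, Timd4, Marco, Arg1, Chil3, Retnla, Folr2, Lyve1 and Vsig4. The exception was Mgl2, a galactose-binding lectin, with 21405 units untreated and 25614, 28711 and 29897 units on the 1, 4 and 6 h arrays; its reference channel on the untreated array differed by -1.14 log2 units from the median of the other 3. The other detected members were Klf4 (136 units), Clec10a (70.5 units), which is the closest relative of Mgl2, Pparg (33.8 units) and Il4ra (30.1 units).

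Genes of classical activation were found in every class at rest. Of 15 scored, 10 were detected (66.7%, beside 57.4% of all genes) and 4 were bright (26.7%, beside 14.4%). Tnf, the main early inflammatory cytokine, had 14784 units untreated and 19460, 34336 and 21193 units on the 1, 4 and 6 h arrays, so the resting level was the lowest of the 4 but already in the bright class. Acod1 (6799 units), which makes itaconate, Irf5 (3586 units) and Socs3 (3476 units) were the other bright members. Nos2, the inducible nitric oxide synthase, lay in the middle class at 1524 units. Ptgs2 (93.4 units), Cd40 (82 units) and Il23a (61 units) were dim, and Il1b, Il6, Il1a, Cd86 and Cxcl9 were not well above background.

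Osteoclast genes were partly on. Acp5, the tartrate-resistant acid phosphatase, had 15785 units from 2 probes that agreed closely, and 16113, 17082 and 18071 units on the 1, 4 and 6 h arrays. Car2 (6430 units), the carbonic anhydrase that feeds acid secretion, Tnfrsf11a (2109 units), the receptor RANK, and Dcstamp (1933 units), a fusion protein, were bright too. Ctsk (327 units), the collagen-degrading protease of osteoclasts, was in the middle class, Ocstamp (81 units) and Oscar (52 units) were dim, and Calcr and Itgb3 were not well above background. All 12 inflammasome components were detected. Casp1 (3364 units), the protease that matures interleukin-1, Gsdmd (3023 units), which forms the pore, and Naip5 (2324 units) were bright, while the adaptor Pycard had 531 units and the sensors Nlrc4 (158 units) and Nlrp3 (151 units) were lowest.

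**Figure D3:**
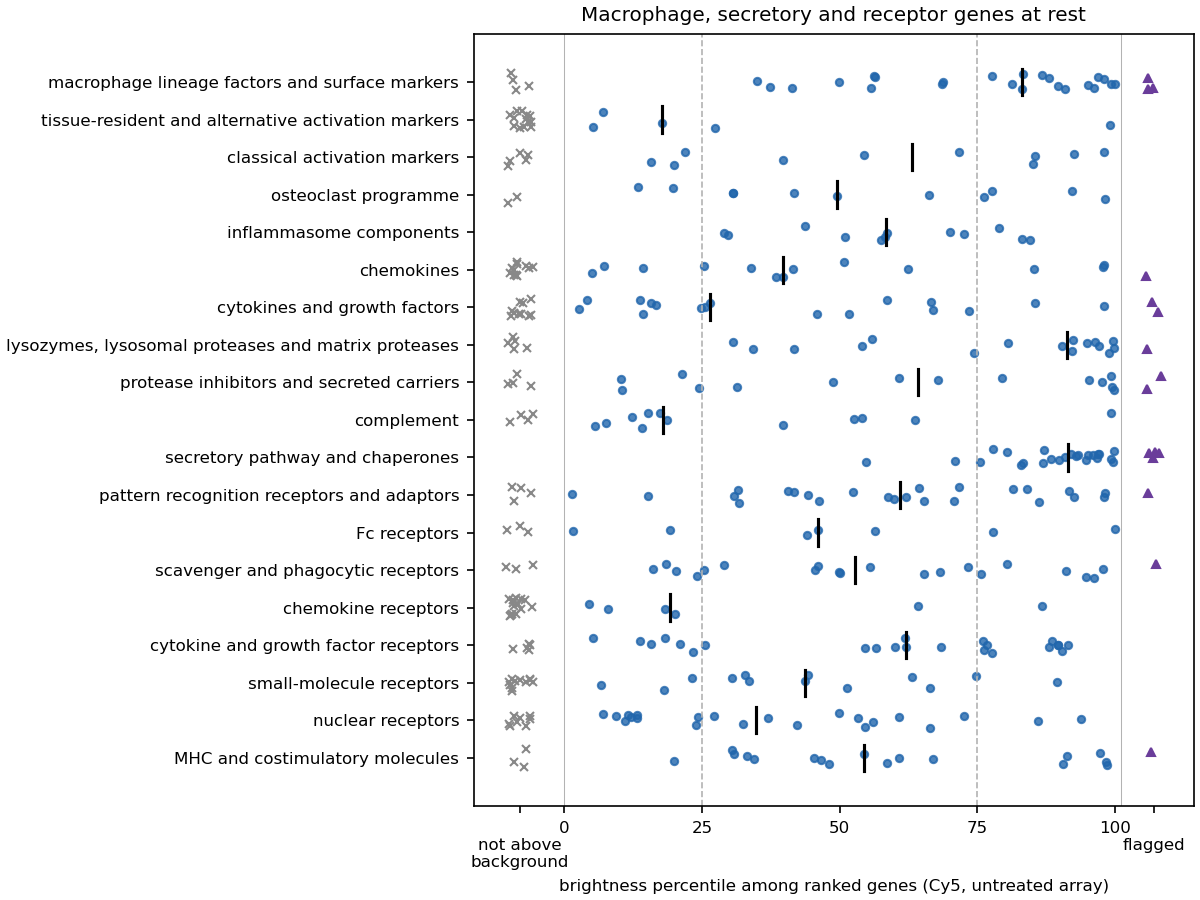
Brightness percentile among ranked genes (horizontal axis) of each member of the macrophage, secretory and receptor lists on the untreated array; dots are ranked genes, black bars list medians, crosses members not well above background and triangles members with flagged spots only. The lysosomal protease and secretory pathway lists have medians above percentile 91. The chemokine receptor and alternative activation lists have medians below 20 and most members among the crosses.

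Some genes of lysosomal proteases and secreted carriers were among the brightest of the secretory lists. Of 21 scored lysozymes and proteases, 16 were detected (76.2%, beside 57.4% of all genes) and 10 were bright (47.6%, beside 14.4%). Lgmn (32764 units), an asparaginyl protease, Ctsb (29092 units), Ctsl (19739 units) and Ctss (12457 units), all lysosomal cathepsins, led them. Lyz2, the myeloid lysozyme, had 5368 units and its near-identical copy Lyz1 had 613 units, and cross-hybridisation between them cannot be told apart. Of the 6 matrix metalloproteinases in this list Mmp9 alone was detected, at 167 units, and Mmp2, Mmp8, Mmp12, Mmp13 and Mmp14 were not well above background. Among 18 inhibitors and carriers, Cst3 (31074 units), the inhibitor cystatin C, Gpnmb (23575 units), a lysosome-associated glycoprotein, Lpl (22962 units), the lipoprotein lipase, and Psap (13703 units), the precursor of saposins, were brightest. Cst3 kept a like level on the other arrays (31428, 26917 and 28559 units at 1, 4 and 6 h). Apoe, the cholesterol carrier, had 865 units untreated and 1052, 1283 and 1955 units on the 1, 4 and 6 h arrays, its lowest value being the untreated one. Timp1 (42 units) and Timp2 (42.6 units) were dim, and Fn1, Thbs1, Serpinb2 and Ctla2a were not well above background.

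Among chemokines, Ccl2 and Ccl4 were brightest. Of 24 scored chemokines, 13 were detected (54.2%, beside 57.4% of all genes) and 3 were bright (12.5%, beside 14.4%), so neither share stood above the background. Ccl2, which attracts monocytes, had 14615 units untreated and 17108, 18003 and 13164 units on the 1, 4 and 6 h arrays. Ccl4 had 14166 units, and 13539, 20535 and 13773 units later. Cxcl14, an atypical chemokine, had 3520 units and differed little on the other arrays (4091, 3394 and 3512 units). Ccl3 had 320 units untreated, 85.5 at 1 h, 49.4 at 4 h and 10841 at 6 h, and its reference on the untreated array lay 1.17 log2 units above the median of the other 3, though the same pool was used throughout. Ccl9 could be read only from a flagged spot (39836 units). Undetected were 11 members, among them Cxcl1, Cxcl3, Cxcl12, Ccl17 and Ccl22. Of 27 cytokines and growth factors 17 were detected (63.0%, beside 57.4%) and 2 were bright (7.41%, beside 14.4%), Tnf and Tgfb1 (3553 units), the latter a suppressive cytokine. Tnfsf9 (1674 units) and Vegfa (1181 units) came next, Csf1 (28.6 units) and Il1rn (26 units) were the dimmest detected, and Il12a, Il15, Ifnb1, Csf2, Lif, Gdf15 and Areg were not well above background together with the interleukin-1 and interleukin-6 genes named above.

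Complement genes ranged from bright to undetected. Cfp, which encodes properdin, the stabiliser of the alternative pathway, had 23124 units and was the only bright member of 16, with 29780, 29505 and 27961 units on the 1, 4 and 6 h arrays. Its reference on the untreated array differed by -1.13 log2 units from the median of the other 3, and its Cy5 over Cy3 log2 ratio was 0.97. The initiator genes C1qa (35 units), C1qb (31 units) and C1qc (54.6 units), which tissue macrophages make, were all dim. C3 (615 units) and the receptor C3ar1 (572 units) were in the middle class, and Hc, C5ar1 and Cd55 were among those not well above background. The reference of C3ar1 differed in the same way as that of Cfp, by -1.02 log2 units. The machinery of secretion was bright throughout: all 24 scored genes were detected and 22 were bright, led by the chaperones Hspa5 (31742 units) and Calr (30197 units) and the oligosaccharyltransferase subunit Ddost (22981 units), with Ssr1 (1460 units) and Spcs2 (636 units) lowest.

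Receptors for microbes were widely detected at rest. Of 28 scored pattern recognition receptors and adaptors, 24 were detected and 7 were bright. Clec4d (15842 units), a lectin receptor for mycobacterial glycolipid, had 15953, 17202 and 15329 units on the 1, 4 and 6 h arrays. Unc93b1 (14731 units), which carries nucleic acid sensors to endosomes, the adaptor Myd88 (6799 units) and Tlr2 (6164 units), the receptor for bacterial lipoproteins, followed. Tlr2 had 5912, 7289 and 3728 units on the 1, 4 and 6 h arrays. The lipopolysaccharide receptor Tlr4 had 780 units and its partner Ly96 had 1047 units, both in the middle class. Tlr13, a bacterial RNA sensor, was bright (3759 units), Cd180 (59 units) and Clec4n (23.5 units) were dim, and Tlr3, Tlr5, Tlr8 and Ticam2 were not well above background.

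Phagocytic receptors were spread over all classes. Among 10 Fc receptor genes, Fcer1g and Fcgr4 (2136 units) were bright, Fcgr2b (692 units), Fcgr3 (413 units) and Fcgrt (370 units) were in the middle class, Fcgr1 (77.5 units) was dim, and Fcer1a, Fcamr and Fcrls were not well above background. Of 23 scavenger and phagocytic receptors 20 were detected (87.0%, beside 57.4% of all genes) and 6 were bright (26.1%, beside 14.4%). Cd47 (14378 units), the signal that restrains phagocytosis, Itgb2 and the endocytic receptor Lrp1 (8774 units) were on top. The scavenger receptor Msr1 had 1666 units and Cd36 had 660 units. Tyro3 (74.4 units) and Axl (62.5 units), receptors for dying cells, were dim, and Mertk, Marco and Olr1 were not well above background.

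Chemokine receptors guide cells along chemokine gradients. Members of their list, which also holds receptors for other ligands such as Ptafr and Fpr1, were mostly not detected. Only 6 of 20 were detected (30.0%, beside 57.4% of all genes). Cx3cr1 was the only bright one, Cxcr3 had 1040 units with a reference that differed by -1.65 log2 units from the other arrays, and Cxcr5 (83 units), Ptafr (73.5 units), Ccrl2 (36 units) and Ccr9 (29 units) were dim. The other 14, among them Ccr1, Ccr2, Ccr7, Cxcr4 and Fpr1, were not well above background.

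Cytokine receptors were more often bright, 10 of 28 scored (35.7%, beside 14.4% of all genes), with 23 detected (82.1%, beside 57.4%). They included Il2rg (6026 units), the common gamma chain, Csf3r (5339 units), Csf2ra (5054 units), Ifngr2 (5023 units) and Ifnar2 (4543 units). Ifngr1 had 836 units and Ifnar1 had 102 units. Il1rap (53.7 units) and Il4ra were the dimmest, and Il1r1, Il18r1, Kit, Flt3 and Pdgfrb were not well above background. Of 24 receptors for small molecules 13 were detected (54.2%, beside 57.4% of all genes), and Gpr84 (4950 units), a receptor for medium-chain fatty acids, was the only bright one. It had 4526, 4202 and 1943 units on the 1, 4 and 6 h arrays. P2ry6 (1801 units) and P2rx4 (1156 units), which sense nucleotides, and Ptgir (985 units), the prostacyclin receptor, were next. Adora3 (72.5 units) and Lpar1 (33 units) were the dimmest, and 11 were not well above background, among them P2ry12, P2ry13, Adora2a, Ptger2 and S1pr1.

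Among 30 nuclear receptors, which are ligand-controlled transcription factors, 22 were detected (73.3%, beside 57.4% of all genes). Only 2 were bright (6.67%, beside 14.4%), Rxrb (7775 units) and the sterol sensor Nr1h2 (3726 units). Its relative Nr1h3 had 593 units, Ppard had 1153 units and the glucocorticoid receptor Nr3c1 had 135 units, while Ppara (39.1 units) and Pparg were dim. Rarb, Thrb, Esr1, Pgr, Nr4a3, Rora and Nr2f2 were among those not well above background. Antigen presentation was led by B2m (17101 units) and the invariant chain Cd74 (16480 units), then H2-K1 (12682 units) and Tap2 (5922 units). The class II chains H2-Ab1 (864 units), H2-Eb1 (776 units) and H2-Aa (166 units) were lower, Cd40 was dim, and Ciita, the activator of class II genes, Cd86 and Cd1d1 were not well above background. H2 genes share sequence, so their probes may report more than 1 member.

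**Figure D4:**
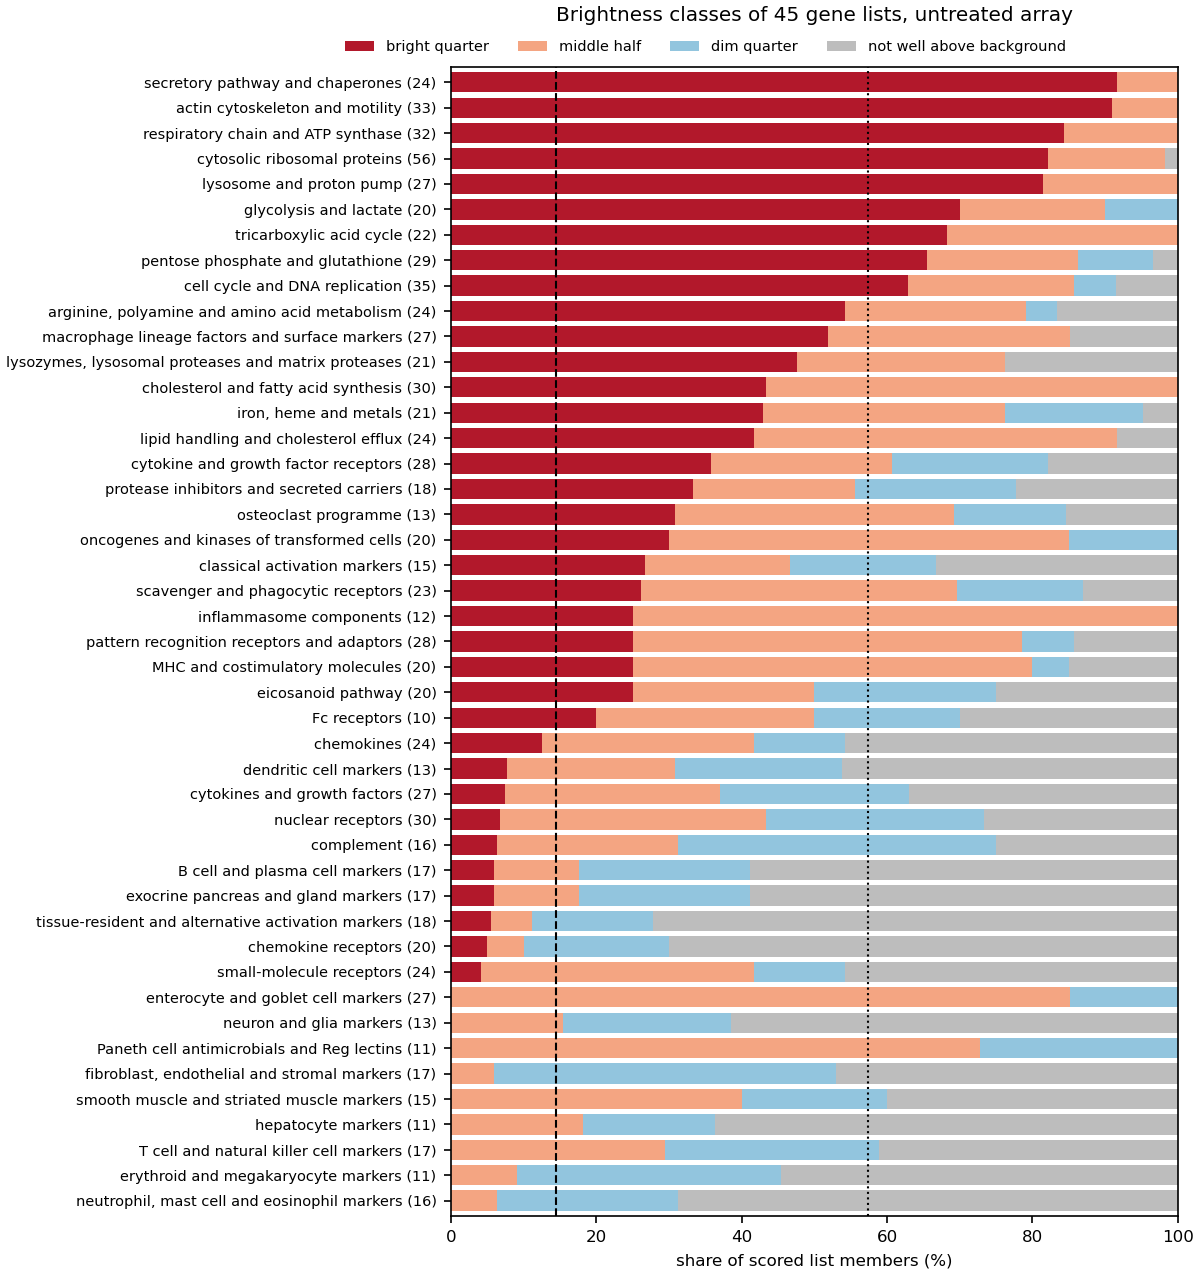
Share of scored members (horizontal axis, percent) in each brightness class for 45 gene lists on the untreated array, with the number of members scored in brackets; the dashed line marks the 14.4% of all genes that are bright and the dotted line the 57.4% detected. The secretory pathway (91.7% bright), actin (90.9%) and respiratory chain (84.4%) lists are at the top. The enterocyte and Paneth cell lists have 0 bright but all scored members detected, and were written with earlier results of these data known.

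Metabolic genes were among the brightest parts of the profile. Of 248 listed metabolic genes scored, each counted 1 time, 235 were detected (94.8%, beside 57.4% of all genes) and 146 were bright (58.9%, beside 14.4%). These 248 genes span energy metabolism and also the lipid, lysosome, iron, amino acid and eicosanoid lists below. All 20 scored genes of glycolysis were detected and 14 were bright: Pgk1, Gapdh and Gpi1 led, followed by Slc16a3 (34046 units), which exports lactate, and Tpi1 (21351 units). Slc2a1, the main glucose transporter, had 9146 units. The hexokinase genes Hk3 and Hk2 had 1884 and 1424 units. The lactate dehydrogenase genes Ldha and Ldhb read 7816 and 62.5 units, and Slc16a1, another lactate carrier, 33.5 units, each on its own probes. Aldoa, Pkm, Eno1 (51220 units) and Pgam1 (49071 units) were read only from flagged spots, so the counts leave out some of the brightest glycolytic genes.

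Mitochondrial metabolism showed no dim member. In the tricarboxylic acid cycle 15 of 22 were bright (68.2%, beside 14.4% of all genes) and 7 in the middle class. Highest were Cs (22676 units), the citrate synthase, Dlst (16378 units), Idh3g (13928 units) and Idh2 (12992 units). Pcx (601 units) and the cytosolic Idh1 (344 units) were lowest. In the respiratory chain and ATP synthase 27 of 32 were bright (84.4%, beside 14.4%). Cox4i1, Cox5a (30691 units), Atp5b (21947 units) and Cyc1 (20819 units) headed them, and Atp5o (340 units) and Ndufa8 (279 units) were lowest. Pentose phosphate and glutathione genes had 19 bright members of 29. Pgd (27411 units), which makes NADPH, and Gpx1 (25712 units), Gpx4 (23468 units) and Sod2 (22843 units), which remove peroxide or superoxide, led. Rpe (77 units), Slc7a11 (104 units) and Nqo1 (30.5 units) were dim, and Gsta4 was not well above background.

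All 30 genes of cholesterol and fatty acid synthesis were detected, 13 of them bright. Scd2 (30738 units), a desaturase, Fdps (15920 units), Msmo1 (12444 units) and Ebp (9892 units), which act in the sterol pathway, were highest. Fasn (272 units) and Acaca (181 units), the 2 committed enzymes of fatty acid synthesis, were near the bottom of the list together with Tm7sf2 (270 units). For lipid handling 22 of 24 were detected. Lpl, Fabp5 (12968 units), Npc2 (12702 units) and the lipid droplet protein Plin2 (12510 units) led, whereas the cholesterol exporter Abca1 was not well above background and its relative Abcg1 had 832 units. Elovl6, a fatty acid elongase with 923 units, had 158, 57.2 and 33.2 units on the 1, 4 and 6 h arrays, and its reference on the untreated array stood 2.55 log2 units above the other 3.

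Lysosome genes were bright in 22 of 27 cases (81.5%, beside 14.4% of all genes) and none was dim. Atp6v0c, Cd63 (31395 units), a membrane protein of late endosomes, Atp6v0e (29483 units) and the hydrolase Gusb (21486 units) led, and Slc11a1 (15420 units), the phagosomal metal pump NRAMP, was also high. Gaa (340 units) and the lysosomal regulator Tfeb (219 units) were lowest. Of the iron, heme and metal genes 20 of 21 were detected: Ftl1, the metallothioneins Mt1 (25424 units) and Mt2 (11430 units) and the heme oxygenase Hmox1 (5619 units) were highest, the iron exporter Slc40a1 had 122 units, Cp (62 units) and Aco1 (55 units) were dim, and Hamp was not well above background.

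In amino acid metabolism 13 of 24 were bright (54.2%, beside 14.4% of all genes). Phgdh (24952 units), the entry to serine synthesis, Srm (21232 units), the spermidine synthase, Slc3a2 (19875 units), a carrier chain, and Ass1 (14282 units), which recycles citrulline to arginine, were at the top. Arg1, the transporter Slc7a2, Ido1 and Tdo2 were not well above background, and Arg2 was dim (63 units). In the eicosanoid pathway Alox5ap (22775 units), the protein that activates leukotriene synthesis, was the brightest of 5 bright members among 20 scored, with 21351, 21239 and 23661 units on the 1, 4 and 6 h arrays. The lipoxygenase it serves, Alox5, had 59.5 units untreated and 60.5, 54.6 and 73.1 units on those arrays. The prostaglandin E synthase genes Ptges3 (3593 units) and Ptges2 (2895 units), Pla2g4a (2474 units), which frees arachidonate, and Ephx1 (2134 units) were also bright. Ptgs1 had 209 units and Ptgs2 was dim, Tbxas1 (29.5 units) was the dimmest, and Pla2g7, Alox12, Alox15, Ptgds and Ephx2 were not well above background.

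Growth-related groups shared the top. Cytosolic ribosomal proteins had 46 bright of 56 scored, and 21 more could be read only from flagged spots; they are rich in processed copies, so their probes may report more than 1 gene. Actin genes had 30 bright of 33, with Rac2 (19006 units), a small GTPase of leukocytes, and Flna (17567 units) after Actb and Capg. Cell cycle genes had 22 bright of 35, headed by Mcm6 (28123 units), Rrm2 (18327 units), Ccnd1 (16591 units) and Mcm5 (15172 units), all of DNA replication or its control. The cyclin gene Ccnb2 had 9706 units. Cdk1 was dim at 53 units, read from the 1 of its 3 probes that passed, and Ccne2, Aurkb and Cdkn2a were not well above background. Among oncogenes and kinases Mdm2 (13367 units), Mcl1 (8648 units) and Myc (3540 units) were among the brightest. For Abl1, the gene that the transforming virus carries in an altered form, the mean of 2 passing probes was 395 units. These probes disagreed by 5.58 log2 units, with the brighter at 2732 units, so the level of Abl1 is not settled.

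Markers of other cell types were seldom bright, and all scored members of 2 intestinal lists were detected. Across all lists of other cell types 106 of 185 were detected (57.3%, beside 57.4% of all genes) and 3 were bright (1.62%, beside 14.4%). Without the intestinal lists 68 of 147 were detected (46.3%) and 3 were bright (2.04%). The bright ones were Cd74, which is also in the antigen presentation list, Xbp1 (15430 units), a plasma cell factor that acts in the stress response of many cells, and Zg16 (2599 units), a lectin of goblet and zymogen granules. Of the T and natural killer cell markers 10 of 17 were detected, with Gzma (361 units), a granule protease, and the kinase Lck (342 units) highest and Cd3e (76 units), Cd3d (51 units) and Cd3g (24 units) of the T cell receptor complex dim, while Cd8a, Cd247 and Foxp3 were not well above background. Of the B and plasma cell markers 7 of 17 were detected, with Sdc1 (1532 units) and Jchain (684 units) after Xbp1, while Ms4a1, Cd79a and Pax5 were not well above background. Muscle markers had 9 of 15 detected, led by Smtn (900 units) and Acta2 (713 units), and stromal markers 9 of 17, led by Kdr (350 units), with Col1a1 and Pdgfra not well above background. The dendritic cell list had 7 of 13 detected and the gland list 7 of 17. Neutrophil, mast cell and eosinophil markers had 5 of 16 detected, with S100a8 (138 units) highest and Mpo, Ltf and S100a9 not well above background. Erythroid markers had 5 of 11, neuron and glia markers 5 of 13 and hepatocyte markers 4 of 11 detected, with Alb and Ttr among those not well above background. All 27 enterocyte and goblet cell markers and all 11 scored Paneth cell markers were detected, and 7 more Paneth markers had no scored probe. These lists were written with earlier results of these data known, so their full detection is no independent result. Apoa1 (1502 units), Krt19 (1372 units), Fabp2 (1044 units) and Krt8 (851 units) led the first list, and the mucin Muc2 had 490 units and the lactase gene Lct 400 units. Defa29 (1024 units), Defa3 (897 units) and Defa21 (612 units) led the second, but the alpha-defensin genes are near-identical and their probes cannot separate them. Some alpha-defensin genes outside the list read higher: Defa2 had 1892 units, in the bright class, Defa38 had 1440 and Defa42 had 1410 units. Defa40 (632 units) and Defa36 (580 units), also outside it, did not reach the level of Defa3.

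The intestinal markers were lower in untreated cells than in the reference. After loess normalization the log2 ratio of Cy5 to Cy3 was at least 1 for 10 of 10594 genes (0.0944%) and at most -1 for 90 (0.85%). Of the 90, 30 were in the intestinal, gland or muscle lists, and 36 were in these lists or were alpha-defensin genes. The lists had 27 enterocyte, 11 Paneth, 6 gland and 7 muscle members with a ratio. They were written with earlier results of these data known, so the overlap is no independent support. The counts of high and low ratios depend on the scaling: median centring in place of loess gave 238 high and 45 low genes, and the scanner's own log ratio gave 66 and 367. Of the enterocyte list 15 of 27 lay at or below -1 and 4 above 0, with a median of -1.06, and of the Paneth list 8 of 11, with a median of -1.69. For the macrophage lineage the median was 0.12, with 0 of 22 at or below -1. Reg3b, an antibacterial lectin of the gut, had the lowest ratio at -3.86, with 89 units untreated and 1823, 892 and 573 units on the 1, 4 and 6 h arrays. Reg3g (-3.08), with 218 units untreated and 1638, 921 and 578 units on those arrays, Mptx1 (-2.67), Clca1 (-2.35), Defa3 (-2.21), Defa36 (-2.21), Defa40 (-2.19), Fabp2 (-2.15), Zg16 (-2.09) and Gpx2 (-2.07) came next. The untreated array was thus the lowest of the 4 for both Reg3 genes. Their references on the untreated array stood 0.94 (Reg3b) and 0.62 (Reg3g) log2 units above the median of the other arrays, which lowers these ratios further. Low ratios were not confined to it: on the 1, 4 and 6 h arrays the log2 ratio was -1.69, -1.96 and -2.39 for Fabp2, -0.74, -2.03 and -1.47 for Clca1 and 0.11, -3.39 and -0.89 for Mptx1. List sums, unlike the gene levels above, took each gene at its brightest unflagged probe, whether or not that probe passed. Summed in this way over the enterocyte list, Cy5 was 15076 units untreated and 20049, 19530 and 20726 units on the 1, 4 and 6 h arrays, and Cy3 was 28140, 24336, 25825 and 22710 units. Over the Paneth list Cy5 was 4634 units untreated and 12961, 10128 and 11314 units, and Cy3 was 17354, 12021, 11642 and 19498 units. Of the 10 low-ratio genes named above, Fabp2, Clca1, Reg3g, Defa3, Defa36, Defa40 and Gpx2 lay below the reference on all 4 arrays. The labels nevertheless describe the reference as a pool of these same groups. Reg3b and Mptx1 lay above the reference at 1 h only, and Zg16 had no ratio at 6 h and lay below it on the others. Why these genes were low was not tested. The RNA came from whole cultures of a macrophage-like line, so a marker's signal is no count of cells of its type. The source of the signal on these probes was not tested.

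**Figure D5:**
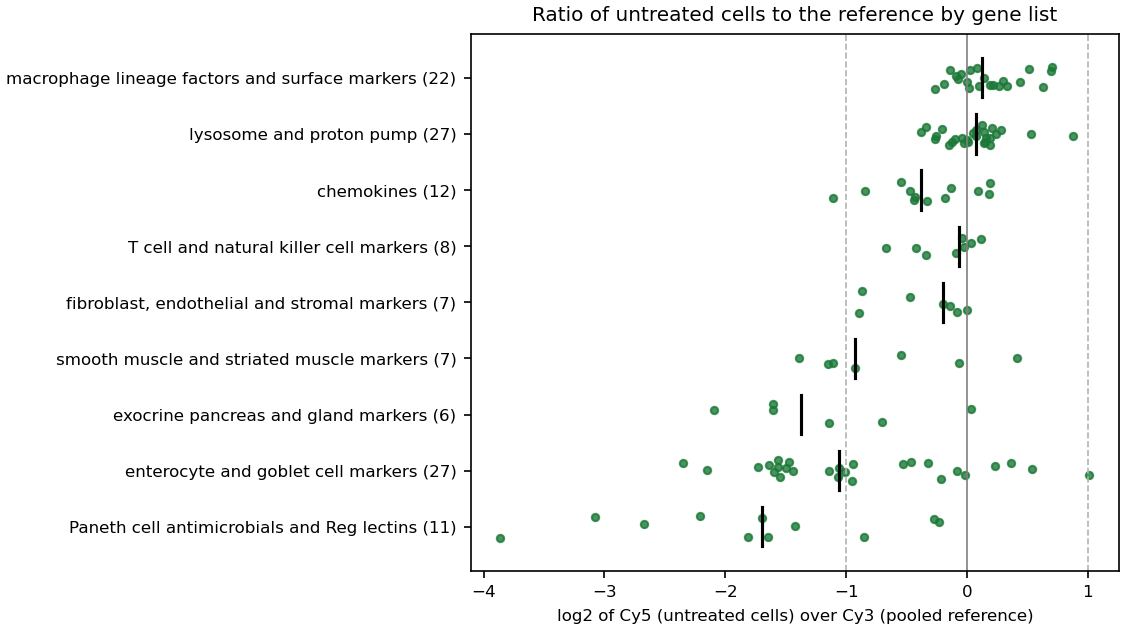
Log2 ratio of Cy5 (untreated cells) to Cy3 (pooled reference) after loess normalization (horizontal axis) for the measured members of 9 gene lists, 1 dot per gene, with list medians as black bars, measured members in brackets and dashed lines at -1 and 1. Macrophage and lysosome genes gather near 0, and enterocyte and Paneth genes have medians of -1.06 and -1.69.

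Among the high ratios after loess, Hsd17b7, a sterol synthesis enzyme, was highest at 1.71, then Dad1 (1.54), Gapdh (1.31), Cep170b (1.21), Cxcr3, Stc2 (1.09), Anapc7 (1.04), Apoa1 (1.01) and Slc41a3 (1.01), with Eno1b (0.99) next. The 10 genes at or above 1 include 1 clone-named transcript that is not shown. In 5 of the 10 the reference itself stood at least 2-fold away from its median on the other 3 arrays, for example by -2.22 log2 units for Dad1, against 2 of the 90 low genes. Over all genes 195 of 10231 (1.91%) had such a reference. Apoa1 was also at 0.95, 1.20 and 1.04 on the 1, 4 and 6 h arrays, so its ratio was near 1 on every array.

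Most genes of each class were in that class on all 3 treated arrays. Of 2998 bright genes 2531 (84.4%) were bright on all 3 of them, of 5997 middle genes 5006 (83.5%) were in the middle class, of 2998 dim genes 1814 (60.5%) were dim, and of 8883 undetected genes 8146 (91.7%) were undetected on all 3. Across genes the rank correlation of untreated Cy5 was 0.98, 0.97 and 0.96 with Cy5 at 1, 4 and 6 h and 0.96 with the Cy3 of its own array; these points share probes, slide and processing, so the values describe the arrays only. On the probes that passed on all 4 arrays, 69 of 11160 genes (0.618%) were at least 2-fold brighter untreated than on every other array and 46 (0.412%) at least 2-fold dimmer. Quantile normalization gave 24 and 12 in their place, and processed signals without centring 45 and 59. Of the 69, 42 had a reference that departed as well. Casc3 had 2394 units untreated and 265, 230 and 85.6 units at 1, 4 and 6 h, but its reference went from 1800 units to 205, 198 and 103 units, and Exoc1 and Elovl5 behaved alike. Of the 46 dimmer genes 8 had a departing reference and 10 none measured. Rarres2, which encodes the chemoattractant chemerin, had 34 units untreated and 160, 252 and 244 units later, with a reference that differed by -0.28 log2 units from the others, and Cd24a had 39 units untreated and 145, 181 and 147 units later. Both were lowest in untreated cells.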

How the data were processed

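Two-colour array images were quantified in Agilent Feature Extraction (version 10.5.1.1 in the submitters' processing notes). The deposited intensity values are, per the file headers, uncorrected medians of spot and local background, with processed signals and a log10 ratio (Cy5 over Cy3) from the authors' scanner software used as alternatives. The deposited series table holds the same log10 ratio, matched by feature number with differences of at most 0.00496, and its median is 0 in each column, so its scale and direction are known. The files carry no gene names: 27649 of 39429 probes were named through unversioned accessions in RefSeq's GRCm38.p6 table. Median background was subtracted from median signal. A probe passed when at least 0.5 of its unflagged spots were well above background, and a gene's level is the mean log2 of its passing probes. Levels set across arrays were scaled to 1 median over probes passing on all 4 arrays. Ratios used normexp (offset 50) and loess in limma 3.58.1 under R 4.3.3. Cy5 was well above background at 51.4% of untreated spots (49.5% to 51.8% on the others), none were saturated, and 1 array per group limits the precision. The steps were tested on simulated data. Tables were made in Python 3.11.15 with numpy 2.4.6, pandas 2.3.3 and matplotlib 3.10.9.

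No test was made, since each group has 1 array. The genes named are the 20 brightest, the 4 brightest, 2 dimmest detected and undetected genes of each list, 5 probe gaps and the 10 highest and lowest ratios, with some not reported here, and others said to be chosen later. The members, lists and rules were chosen with earlier results of these data known. Alternatives changed the background, filters, probe choice, class size and normalization.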

Additional observations from a re-analysis of the deposited data

Results flagged for a closer look

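Probes with no gene name carried signal that the ranking does not use. Of 11635 such probes with an unflagged spot on the untreated array, 3946 (33.9%) were well above background in Cy5, against 56.7% of the named probes and 0 of 153 negative control spots. Of the 100 brightest unflagged probes 49 had no name, and the brightest of them read 134321 units. Which transcripts they report was not tested.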

How the results depend on the processing

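With 1 array per group no replicate could be left out. No paired analysis was possible because each group has 1 array. Naming probes by a gene name column was not run, since the scanner files used here hold none. Keeping flagged spots left 5 of the leading 20 genes among the top 20, taking the brightest probe of a gene left 13, and dropping spots with a flagged local background, chosen after seeing the data, left 11. Classes of 10% in place of 25% lowered the bright macrophage genes from 26 to 12 and the bright receptor genes from 34 to 17. Counting every spot that the software calls positive and significant lowered the undetected macrophage genes from 24 to 14, receptor genes from 51 to 28, metabolic genes from 13 to 6 and genes of other cell types from 79 to 50, and raised the bright genes of other cell types from 3 to 6. Subtracting no background gave counts within 1.5 times throughout. Genes brighter untreated numbered 45 with processed signals without centring, 24 with quantile normalization and 27, added after seeing the data, without genes whose reference departs, in place of 69. Dimmer genes numbered 12 with quantile normalization, in place of 46. High ratios numbered 189 at a 1.5-fold threshold, 238 with median centring in place of loess, 66 with the scanner's log ratio and 5 without departing references, in place of 10. Low ratios numbered 220, 45 and 367 under the first 3 of these, in place of 90. The cause of these shifts was not tested. Genes under about 115 units lie close to the background and are the least certain.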
